A study of Mus musculus with 12 samples.

Results

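Type I interferon-stimulated genes were followed in type 2 conventional dendritic cells (cDC2) of the mouse spleen 4 days after lipopolysaccharide (LPS). A fixed list of 33 genes known to be induced by type I interferon was matched by symbol to the deposited expression table of 55322 genes, and the 31 that the table types as protein-coding are the genes described here. The other two, Mx1 and Mx2, are typed there as polymorphic pseudogenes and are given apart. Of the 31 genes, 29 passed the filter on low values (at least 1 FPKM in at least 3 libraries), and Ifi44 and Oas3 did not. FPKM counts fragments relative to library size and to the length of the gene, so it is a level per length. The deposited length can exceed that of a transcript, as in Oasl2 (6374 against 3123 bases). Levels of different genes therefore compare only roughly.

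The 12 libraries formed 4 groups of 3, and every mouse had received 5 mg/kg of LPS into the peritoneum, so no group was unstimulated and a response to LPS itself cannot be read from these data. The reporter groups, L-cDC2 (tdTomato+) and M-cDC2 (tdTomato-), came from Il7r-Cre;Rosa26-lsl-tdTomato mice, in which Cre driven by Il7r, a receptor gene active in lymphoid progenitors, marks a cell and its descendants permanently. CLP-cDC2 and CDP-cDC2 were CD45.2+ cells descended from wild-type common lymphoid progenitors (CLPs) or common dendritic cell progenitors (CDPs) that had been injected straight into the marrow of B6.SJL hosts (CD45.1+), for which the labels give no conditioning, so host cells could remain. The labels give C57BL/6J mice of 7 to 8 weeks, and leave unsaid whether both reporter groups share animals, whether replicates were separate animals, or which markers defined the sort. P-values therefore measure only the spread between these libraries, which may be technical, and in bulk RNA fewer cells with a transcript and less transcript per cell cannot be told apart. The stated purpose was to see how alike CLP-cDC2 and L-cDC2 are.

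Type I interferons bind the receptor pair Ifnar1 and Ifnar2, whose kinases Jak1 and Tyk2 act on Stat2. With Irf9, Stat2 enters a complex that binds interferon-stimulated response elements in promoters and switches on genes that detect viral nucleic acid, block translation or trap virions at membranes. Dendritic cells keep a basal level of this programme, raise it after Toll-like receptor signals, and use it in maturation and priming of T cells.

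Depth recovered from the deposited values ran from 26543345 to 73732243 assigned reads per library, and 12860 to 13892 genes stood at 1 FPKM or more. The cDC2 marker list (20 genes) summed to 1334 to 2020 FPKM over all libraries, with no gene at 0 in all 3 libraries of any group. Genes listed as markers of other cells were detected too: the B cell list summed to 822 to 984 FPKM in L-cDC2 and 360 to 612 in the other groups, and the T cell list to 44.5 to 59.8 FPKM in L-cDC2 and 7.73 to 25.5 elsewhere. The highest single gene of the B cell list reached 821 FPKM in L-cDC2, 393 in M-cDC2, 530 in CLP-cDC2 and 346 in CDP-cDC2. The B cell sum thus rested largely on 1 gene, and does not show how many such cells a library held. The list for NK cells and innate lymphoid cells summed to 292 to 390 FPKM in L-cDC2 and 65.5 to 199 elsewhere. Of its 11 tested genes, 9 were called higher in L-cDC2 than in M-cDC2, where 1.29% of all genes were. In CLP-cDC2 against L-cDC2, 9 were called lower and 1 higher, where 6.32% and 4.29% of all genes were. The highest single gene of this list reached 135.5 FPKM in L-cDC2, 95.4 in M-cDC2, 189 in CLP-cDC2 and 142 in CDP-cDC2. On principal components of all genes, CDP-cDC2 replicate 3 lay apart on the second axis (50.6), as did M-cDC2 replicate 3 on the third (40.5), so counts are also given without this pair.

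The 31 genes spanned a wide range of levels. Ifitm3, which blocks viral entry at endosomal membranes, averaged 965 FPKM over the 12 libraries, and Ifi44, an interferon-induced cytoplasmic protein, 0.454 FPKM. Averaged over the 31 genes on the log2(FPKM + 1) scale, the level was 3.52 ± 0.01 in L-cDC2 (SD, n = 3 libraries), 3.50 ± 0.02 in M-cDC2, 3.57 ± 0.16 in CLP-cDC2 and 3.91 ± 0.05 in CDP-cDC2. The 3 CDP-cDC2 libraries (3.88 to 3.97) lay above all 9 others (3.41 to 3.72), and the CLP-cDC2 libraries were the most spread of the 4 groups. Of the 29 genes tested, 24 (82.8%) had their highest group mean in CDP-cDC2, against 29.8% of all 14538 genes tested. The genes with a higher mean elsewhere were Bst2, Eif2ak2 and Cmpk2 (CLP-cDC2), Stat2 (L-cDC2) and Ifi35 (M-cDC2). L-cDC2, M-cDC2 and CLP-cDC2 overlapped in this mean.

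**Figure D1:**
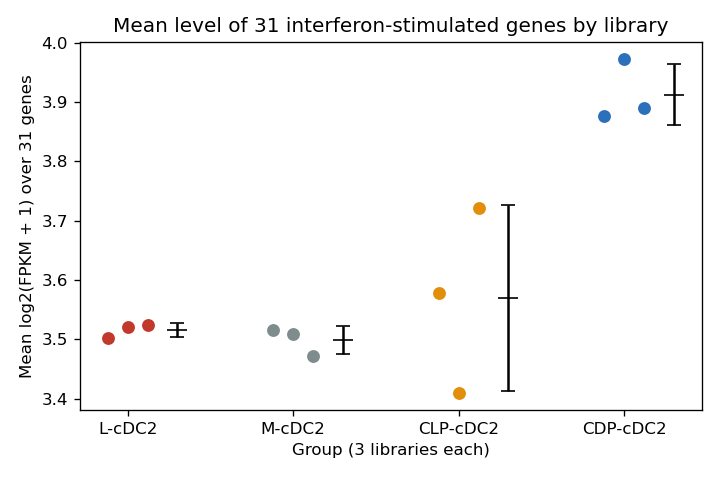
Mean log2(FPKM + 1) over the 31 interferon-stimulated genes, one point per library, by group on the horizontal axis, with the group mean and SD as a bar beside the points. The 3 CDP-cDC2 points lie between 3.88 and 3.97, above the other 9 libraries, and the CLP-cDC2 points run from 3.41 to 3.72.

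Promoters from RefSeq (GRCm38.p6, 250 bases before to 50 bases after the start) were found for 25 of the 31 genes. They were searched on both strands for the core of the interferon-stimulated response element, GAAANNGAAA, in which overlapping matches count separately. The motif was in the promoter of 14 of the 25 genes (56%) and of 3.99% of the 27025 genes with a promoter in the same set. The gamma-activated site, TTCNNNGAA, was in 7 of the 25 (28%) against 9.55% of all genes. A match of letters is not a bound site. Promoter positions are those of GRCm38.p6 and are not on the scale of the gene positions given further on, which follow the deposited table. Promoters are shown for 6 genes, those with the highest mean FPKM among the genes given library by library that hold the first motif, to show where it lies. Of the genes given library by library, Irf7, Irf9, Ifi35, Ifi44 and Oasl2 had no match, and Zbp1, Parp14, Oas2, Rtp4 and Usp18 had no entry. Of the 6 genes shown Stat2 was called in no comparison. Capitals mark the motif as read on the strand of the gene, so a match on the opposite strand appears as its reverse complement.

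In Ifitm3 both matches lie just past the start, at positions 3 and 20, in Bst2 a pair overlap at 130 and 124 bases before the start, and in Stat2 a single match lies 222 bases before it.
Ifitm3, chr7:141010695-141010994, minus strand: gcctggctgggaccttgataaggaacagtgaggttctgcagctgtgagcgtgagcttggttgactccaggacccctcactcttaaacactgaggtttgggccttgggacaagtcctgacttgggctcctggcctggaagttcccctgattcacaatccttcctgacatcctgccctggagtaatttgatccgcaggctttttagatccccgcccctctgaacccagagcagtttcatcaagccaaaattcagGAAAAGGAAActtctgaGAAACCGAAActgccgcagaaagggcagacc
Bst2, chr8:71537423-71537722, minus strand: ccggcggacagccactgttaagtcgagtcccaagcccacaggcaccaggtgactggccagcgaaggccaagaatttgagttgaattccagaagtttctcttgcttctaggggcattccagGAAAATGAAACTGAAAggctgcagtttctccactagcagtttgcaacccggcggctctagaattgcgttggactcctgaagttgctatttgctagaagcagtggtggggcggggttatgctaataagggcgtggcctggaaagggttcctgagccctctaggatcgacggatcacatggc
Stat2, chr10:128270248-128270547, plus strand: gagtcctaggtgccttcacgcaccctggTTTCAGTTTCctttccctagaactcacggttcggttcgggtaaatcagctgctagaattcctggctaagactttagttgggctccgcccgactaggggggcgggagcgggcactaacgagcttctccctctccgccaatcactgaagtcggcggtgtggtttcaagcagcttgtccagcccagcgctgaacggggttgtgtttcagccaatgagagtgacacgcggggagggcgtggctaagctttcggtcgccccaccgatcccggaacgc

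Among the neighbouring Ifit genes, Ifit3 carries a pair of matches at 156 and 122 bases before the start. In Ifit3b the pair lies at 188 and 154 and in Ifit1 at 104 and 85. The pair is equally spaced in Ifit3 and Ifit3b. Neither promoter entry of Ifit2 holds the motif.
Ifit3, chr19:34583279-34583578, plus strand: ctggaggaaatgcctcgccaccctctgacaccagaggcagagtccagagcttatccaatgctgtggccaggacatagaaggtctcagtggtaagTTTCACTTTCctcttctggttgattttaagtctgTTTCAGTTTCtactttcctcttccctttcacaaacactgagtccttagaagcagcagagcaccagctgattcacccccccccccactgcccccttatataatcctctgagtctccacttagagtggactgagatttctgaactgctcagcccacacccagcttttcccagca
Ifit3b, chr19:34607707-34608006, plus strand: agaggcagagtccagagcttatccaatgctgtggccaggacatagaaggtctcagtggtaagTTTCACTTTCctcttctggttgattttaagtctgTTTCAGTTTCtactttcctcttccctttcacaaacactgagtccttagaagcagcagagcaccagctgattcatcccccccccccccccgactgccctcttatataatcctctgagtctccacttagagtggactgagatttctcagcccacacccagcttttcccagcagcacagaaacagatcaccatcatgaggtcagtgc
Ifit1, chr19:34640639-34640938, plus strand: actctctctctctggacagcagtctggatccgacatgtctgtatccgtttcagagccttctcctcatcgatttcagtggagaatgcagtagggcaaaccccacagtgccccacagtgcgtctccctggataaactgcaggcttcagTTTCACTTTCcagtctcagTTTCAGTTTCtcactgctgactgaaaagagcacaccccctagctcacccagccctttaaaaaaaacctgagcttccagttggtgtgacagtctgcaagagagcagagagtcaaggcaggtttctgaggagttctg

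In the reporter mice, where tdTomato+ and tdTomato- cells were compared, none of the 29 genes passed limma's test in either direction (adjusted p under 0.05), while 1.29% of all genes tested were called higher in L-cDC2 and 0.44% lower (188 and 64 genes, or 174 and 96 under quantile scaling). By unadjusted p, 3 genes (10.3%) were under 0.05, beside 8.26% of all genes. These were Oas2 and Stat2, with the higher value in L-cDC2, and Ifitm3, with the lower. All L-cDC2 libraries lay above all M-cDC2 libraries in 4 genes (Oas2, Oasl2, Stat2 and Parp14) and below in 2 (Bst2 and Ifitm3). Of all 14538 genes tested, 1847 lay above and 969 below in this way. With voom on recovered reads, 0 of the 29 genes were called either, while 183 of all 14538 genes were called higher and 65 lower. The median difference of the 29 genes was -0.04 in log2 units beside 0.04 over all genes tested, with 12 positive and 17 negative. The differences ran from -0.66 (Ifitm3) to 0.79 (Oas2) with adjusted p from 0.12 to 0.979.

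Among the progeny of transferred progenitors, 9 of the 29 genes were called lower in CLP-cDC2 than in CDP-cDC2 and 0 higher (limma, adjusted p under 0.05). Over all genes tested 6.12% were called lower and 7.02% higher. The 9 were the RNA-binding Ifit1, Ifit3 and Ifit3b, the radical SAM enzyme Rsad2, the sensors Ifih1 and Zbp1, the transcription factor Irf7, the membrane protein Ifitm3 and the ADP-ribosyltransferase Parp14. The median difference was -0.34 beside -0.01 over all genes, with 25 negative and 4 positive. In 9 genes all 3 CLP-cDC2 libraries lay below all 3 CDP-cDC2 libraries, against 13% of all genes tested, and in 0 genes above, against 16.7%. These 9 were the called genes with Oas2 in place of Ifitm3. The 20 genes without a call ran from -0.72 (Oas2) to 0.41 (Bst2), with adjusted p from 0.0772 to 0.958. The count of 9 fell to 4 without the pair of libraries that lay apart. Leaving out single libraries gave 2 (CDP-cDC2 replicate 2, or CLP-cDC2 replicate 2), 3 (CLP-cDC2 replicate 1), 4 (CDP-cDC2 replicate 3) and 5 (L-cDC2 replicate 3, or M-cDC2 replicate 2). Without the filter on low values, or with the 2 groups fitted alone, the count was 1 (Ifit1). Calls over all genes moved too. The 889 lower became 808 without the pair, 491 without the filter (44519 genes) and 501 without CLP-cDC2 replicate 2. They were 727 without CDP-cDC2 replicate 2, 603 without CLP-cDC2 replicate 1 and 639 without CDP-cDC2 replicate 3.

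**Figure D2:**
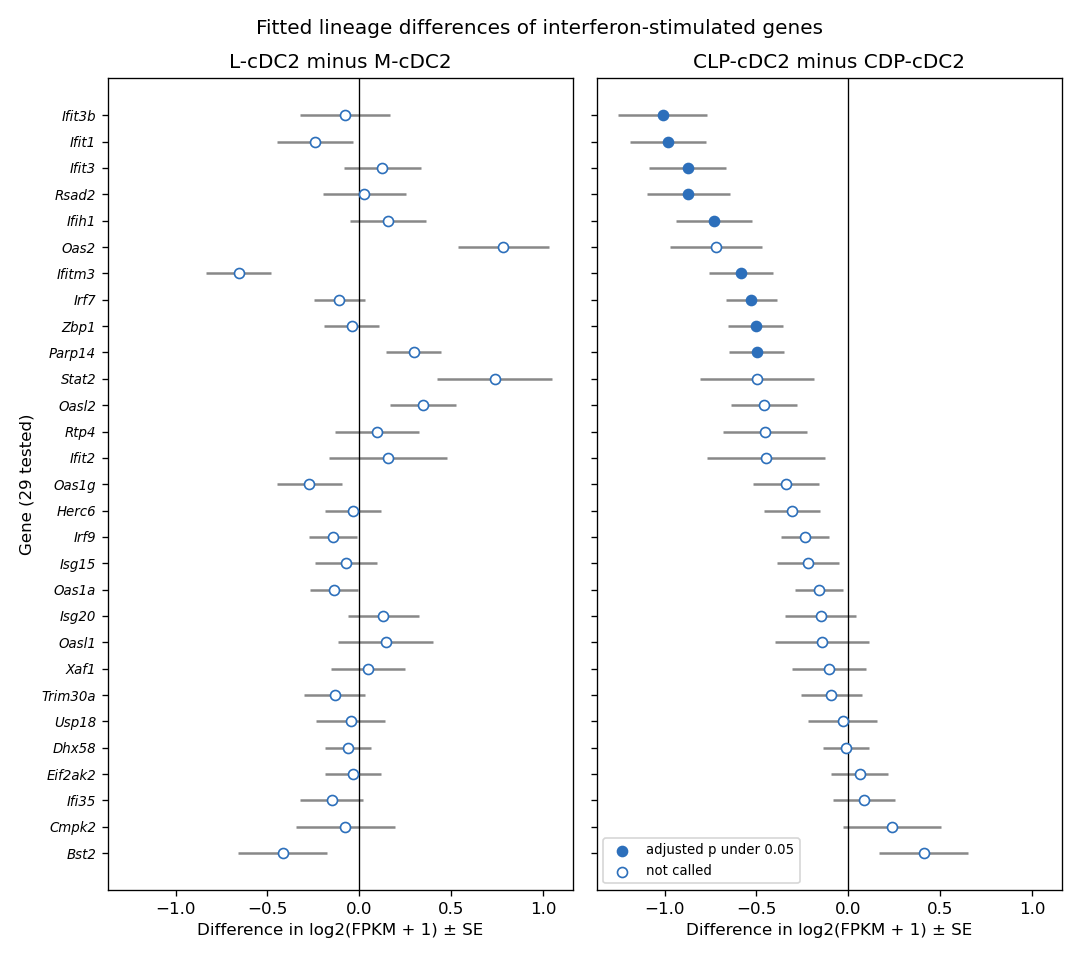
Fitted difference in log2(FPKM + 1) with its SE for each of the 29 tested genes, L-cDC2 minus M-cDC2 on the left and CLP-cDC2 minus CDP-cDC2 on the right, with genes in the same order. Filled points passed an adjusted p of 0.05; all 9 of them lie left of 0 on the right, and none is filled on the left.

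The IFIT proteins bind viral RNA and hinder its translation, and their genes lie side by side on chromosome 19. Ifit1 (ENSMUSG00000034459, chromosome 19 from 34618271 to 34627409) read 6.22, 5.88 and 3.98 FPKM in L-cDC2, 8.16, 6.62 and 4.85 in M-cDC2, 3.40, 5.02 and 5.08 in CLP-cDC2, and 8.30, 10.5 and 10.6 in CDP-cDC2. All CLP-cDC2 libraries were at 5.08 FPKM or less and all CDP-cDC2 libraries at 8.30 or more, while the reporter libraries ran from 3.98 to 8.16 and overlapped each other. Its CLP-cDC2 minus CDP-cDC2 difference was -0.98 (SE 0.21, adjusted p = 0.0096 by limma), and the call held in all 25 alternatives tried (adjusted p 0.00435 to 0.0442). In L-cDC2 against M-cDC2 it was -0.24 (SE 0.21, adjusted p = 0.79 by limma).

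Ifit3 (ENSMUSG00000074896, chromosome 19 from 34560931 to 34566131) read 12.8, 10.1 and 12.1 FPKM in L-cDC2, 9.23, 9.67 and 13.1 in M-cDC2, 6.47, 8.64 and 10.3 in CLP-cDC2, and 16.7, 20.6 and 12.1 in CDP-cDC2. CDP-cDC2 replicate 3, the lowest of its group, still exceeded every CLP-cDC2 library, and the difference was -0.88 (SE 0.21, adjusted p = 0.017 by limma). Ifit3b (ENSMUSG00000062488, chromosome 19 from 34585370 to 34590801) read 3.10, 4.37 and 4.61 FPKM in L-cDC2, 4.88, 3.82 and 4.12 in M-cDC2, 1.79, 1.78 and 4.42 in CLP-cDC2, and 4.96, 6.72 and 6.47 in CDP-cDC2, with 1 CLP-cDC2 library near the lowest CDP-cDC2 library and the others well below. It differed by -1.01 (SE 0.24, adjusted p = 0.018 by limma). The transcripts of Ifit3 and Ifit3b are 98.0% identical over 1697 aligned bases, and no source used here says how reads that fit both were divided, so the single values of each are uncertain. Ifit3 passed the threshold no longer without replicate 2 of CDP-cDC2 (adjusted p = 0.0587, limma) or 1 of CLP-cDC2 (0.0664). Ifit3b did not pass without replicate 2 or 3 of CDP-cDC2 or 1 or 2 of CLP-cDC2 (0.0512 to 0.0796). Ifit2, the remaining Ifit gene among the 31, had group means from 3.65 (M-cDC2) to 6.02 FPKM (CDP-cDC2) and was called in no comparison.

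Rsad2 (viperin, ENSMUSG00000020641, chromosome 12 from 26492745 to 26506451), which makes a chain-terminating nucleotide, had low levels: 1.41, 1.52 and 1.26 FPKM in L-cDC2, 2.03, 1.39 and 0.790 in M-cDC2, 0.435, 0.556 and 0.848 in CLP-cDC2, and 1.35, 2.90 and 1.75 in CDP-cDC2. The CLP-cDC2 libraries all lay under 1 FPKM and the CDP-cDC2 libraries all above it. The difference was -0.87 (SE 0.23, adjusted p = 0.025 by limma), which a pseudocount of 1 understates at such levels, and the lowest CLP-cDC2 library rested on 64 reads. The call ended without replicate 2 of CDP-cDC2 or 1 or 2 of CLP-cDC2 (limma adjusted p 0.0781 to 0.081). Cmpk2, a mitochondrial nucleotide kinase transcribed divergently from the neighbouring locus, averaged 2.92 FPKM in CLP-cDC2 and 2.23 in CDP-cDC2, a difference of 0.24 (SE 0.27, adjusted p = 0.599 by limma). The 2 neighbours thus had fitted values of opposite sign, and only that of Rsad2 passed the test; the difference between them was not tested.

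Among sensors of nucleic acid, Ifih1 (MDA5, ENSMUSG00000026896, chromosome 2 from 62426142 to 62476599), which detects long double-stranded RNA, read 2.64, 3.83 and 3.15 FPKM in L-cDC2, 3.12, 2.93 and 2.26 in M-cDC2, 2.93, 2.21 and 3.60 in CLP-cDC2, and 4.58, 4.56 and 7.58 in CDP-cDC2. The 3 CDP-cDC2 libraries were above the 9 others, and the difference from CLP-cDC2 was -0.73 (SE 0.21, adjusted p = 0.036 by limma). It did not pass without CDP-cDC2 replicate 3, CLP-cDC2 replicate 1 or 2, M-cDC2 replicate 2 or L-cDC2 replicate 3 (limma adjusted p 0.0522 to 0.145). Zbp1 (ENSMUSG00000027514, chromosome 2 from 173048405 to 173060716), a sensor of Z-form nucleic acid that triggers necroptosis, read 5.93, 7.85 and 7.46 FPKM in L-cDC2, 7.40, 8.14 and 6.34 in M-cDC2, 8.45, 7.02 and 9.54 in CLP-cDC2, and 11.8, 11.8 and 12.9 in CDP-cDC2. CDP-cDC2 again had the 3 highest libraries. Zbp1 differed by -0.50 (SE 0.15, adjusted p = 0.044 by limma) between CLP-cDC2 and CDP-cDC2 and by 0.67 (SE 0.15, adjusted p = 0.039 by limma) between CDP-cDC2 and M-cDC2.

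The first Zbp1 difference held without CLP-cDC2 replicate 3, M-cDC2 replicate 3 or L-cDC2 replicate 1, and missed the threshold without any other single library (limma adjusted p 0.0506 to 0.172). The second missed it without any CDP-cDC2 or M-cDC2 library, CLP-cDC2 replicate 1 or L-cDC2 replicate 3 (0.0506 to 0.142). Eif2ak2 (PKR, ENSMUSG00000024079, chromosome 17 from 79159993 to 79190002), a kinase that stops translation on binding double-stranded RNA, read 2.85, 2.88 and 2.19 FPKM in L-cDC2, 2.85, 3.16 and 2.19 in M-cDC2, 4.48, 3.94 and 4.17 in CLP-cDC2, and 4.24, 4.28 and 3.45 in CDP-cDC2. All 6 libraries of transferred cells were above all 6 libraries of reporter mice. No comparison of Eif2ak2 passed: CLP-cDC2 minus L-cDC2 was 0.52 (SE 0.15, adjusted p = 0.051 by limma) and CDP-cDC2 minus M-cDC2 0.42 (SE 0.15, adjusted p = 0.16 by limma). The former passed in 10 of the alternatives, among them those without CDP-cDC2 replicate 3 or M-cDC2 replicate 3. Dhx58, which modulates the RNA sensors, averaged 24.0 to 27.6 FPKM in the 4 groups and was not called.

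Irf7 (ENSMUSG00000025498, chromosome 7 from 140842619 to 140846394), the transcription factor that amplifies interferon production, read 31.1, 32.2 and 34.8 FPKM in L-cDC2, 35.1, 31.8 and 39.5 in M-cDC2, 28.7, 26.8 and 34.3 in CLP-cDC2, and 36.3, 46.8 and 47.9 in CDP-cDC2. The CDP-cDC2 libraries exceeded every CLP-cDC2 library and overlapped M-cDC2. CLP-cDC2 minus CDP-cDC2 was -0.53 (SE 0.14, adjusted p = 0.028 by limma), lost without replicate 2 or 3 of CDP-cDC2 or 1 or 2 of CLP-cDC2 (0.0791 to 0.113). The DNA-binding partner of the interferon complex, Irf9 (ENSMUSG00000002325, chromosome 14 from 55841028 to 55847487), read 22.6, 24.9 and 20.2 FPKM in L-cDC2, 23.1, 26.4 and 25.4 in M-cDC2, 24.96, 20.1 and 23.8 in CLP-cDC2, and 24.01, 30.00 and 27.6 in CDP-cDC2. All 4 groups overlapped, and CLP-cDC2 minus CDP-cDC2 was -0.24 (SE 0.13, adjusted p = 0.26 by limma).

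Stat2 (ENSMUSG00000040033, chromosome 10 from 128106428 to 128128718), which enters the same complex, read 13.5, 28.96 and 14.9 FPKM in L-cDC2, 12.8, 11.8 and 7.41 in M-cDC2, 13.5, 10.8 and 8.86 in CLP-cDC2, and 12.1, 13.4 and 24.4 in CDP-cDC2. One L-cDC2 library (replicate 2) and one CDP-cDC2 library (replicate 3) stood well above the rest of their groups. L-cDC2 minus M-cDC2 was 0.74 (SE 0.31, adjusted p = 0.53 by limma), and CLP-cDC2 minus CDP-cDC2 was -0.50 (SE 0.31, adjusted p = 0.32 by limma). Usp18 (ENSMUSG00000030107, chromosome 6 from 121222865 to 121247876), the protease that removes Isg15 and damps receptor signalling, read 27.9, 24.03 and 28.6 FPKM in L-cDC2, 28.8, 25.4 and 28.9 in M-cDC2, 23.2, 26.6 and 34.1 in CLP-cDC2, and 26.5, 38.4 and 22.1 in CDP-cDC2. Its groups overlapped throughout, with a CLP-cDC2 minus CDP-cDC2 value of -0.03 (SE 0.19, adjusted p = 0.93 by limma). Isg15, the ubiquitin-like modifier, had group means of 45.6 to 56.4 FPKM, and Herc6, its ligase, of 1.78 to 2.42 FPKM. Both were highest in CDP-cDC2, and neither was called.

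**Figure D3:**
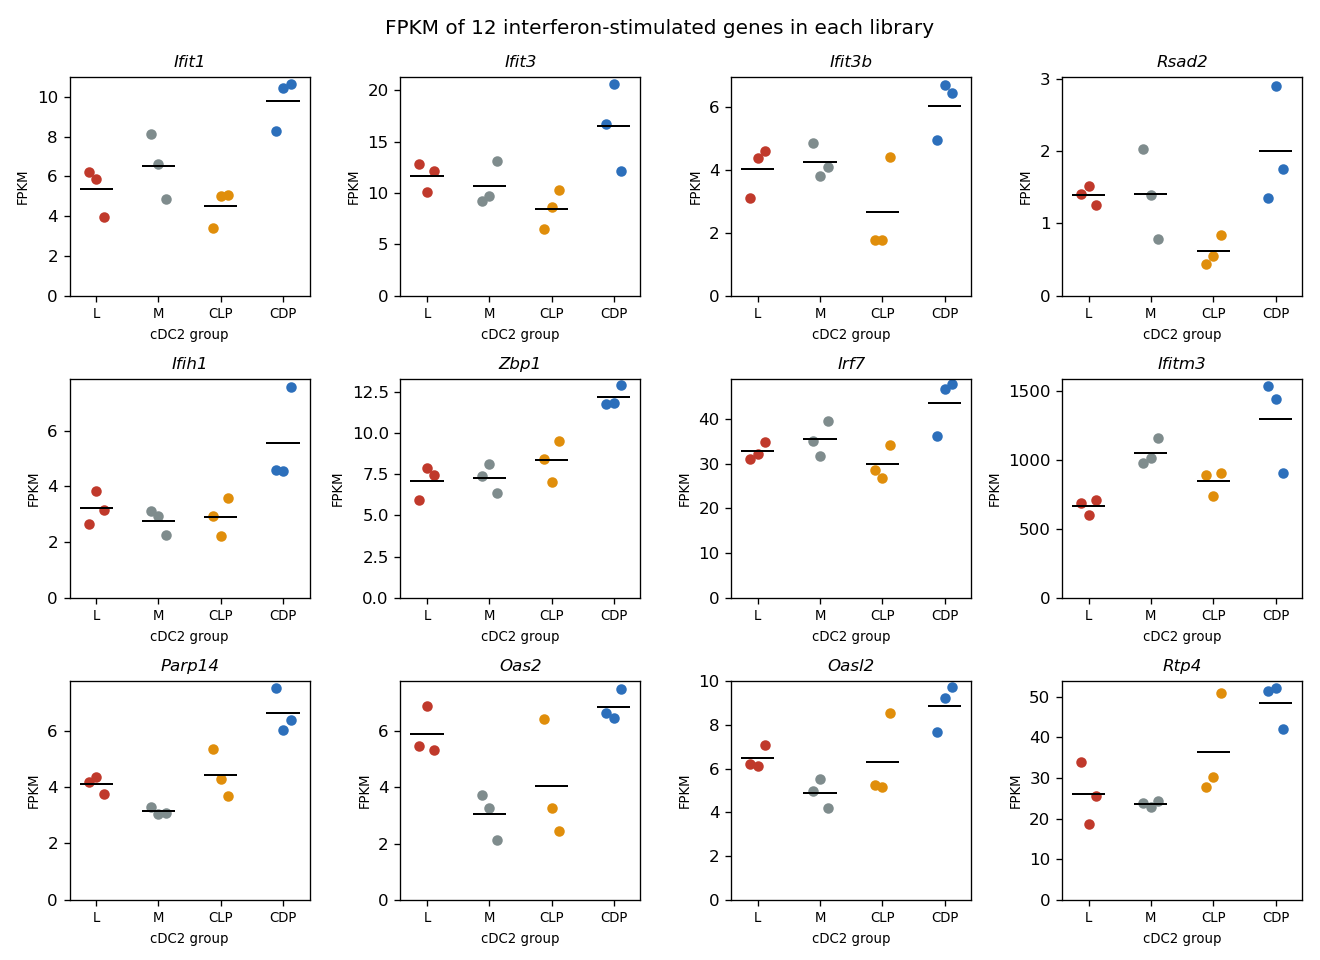
FPKM of 12 of the genes in each library (points) with the group mean (line), on axes that start at 0, for L, M, CLP and CDP groups of cDC2. In Ifit1 the CLP points lie at 3.40 to 5.08 and the CDP points at 8.30 to 10.6; in Ifitm3 the lowest CDP point (907 FPKM) lies level with the highest CLP point (908 FPKM).

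Of the membrane restriction factors, Ifitm3 was called lower in CLP-cDC2 than in CDP-cDC2 and Bst2 higher in CLP-cDC2 than in L-cDC2. Ifitm3 (ENSMUSG00000025492, chromosome 7 from 140589499 to 140590683) read 689.5, 600.4 and 708 FPKM in L-cDC2, 982, 1012 and 1159 in M-cDC2, 891, 740.1 and 908 in CLP-cDC2, and 1541, 1442.5 and 907 in CDP-cDC2. CDP-cDC2 replicates 1 and 2 were the highest libraries, while replicate 3 stood at the level of CLP-cDC2, so the groups overlapped. The Ifitm3 value was a whole number of recovered reads in 0 libraries. No source used here says how reads were divided, so its values are uncertain too. The CLP-cDC2 minus CDP-cDC2 difference was -0.58 (SE 0.18, adjusted p = 0.047 by limma). It was lost without any single library other than CDP-cDC2 replicate 3 or M-cDC2 replicate 3 (0.0534 to 0.172). All L-cDC2 libraries were below all M-cDC2 libraries, with a difference of -0.66 (SE 0.18, adjusted p = 0.12 by limma). Leaving out CDP-cDC2 replicate 3, which is in neither group, brought that adjusted p to 0.0059 (limma).

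Bst2 (tetherin, ENSMUSG00000046718, chromosome 8 from 71986899 to 71990100), which holds budding virions at the cell surface, read 54.8, 56.03 and 56.8 FPKM in L-cDC2, 69.4, 73.9 and 81.8 in M-cDC2, 137, 81.6 and 107 in CLP-cDC2, and 105, 96.5 and 49.8 in CDP-cDC2. CLP-cDC2 lay above all L-cDC2 libraries, and CDP-cDC2 ranged from the lowest value of the 12 to among the highest. Bst2 rose in CLP-cDC2 against L-cDC2 by 0.91 (SE 0.24, adjusted p = 0.032 by limma), a call lost without CLP-cDC2 replicate 1 or 3 or any L-cDC2 library (0.0755 to 0.117). CLP-cDC2 minus CDP-cDC2 was 0.41 (SE 0.24, adjusted p = 0.29 by limma). Bst2 and Irf7 also mark plasmacytoid dendritic cells (pDC). The pDC list of 14 genes, which holds both, summed to 301 to 308 FPKM in L-cDC2, 272 to 307.5 in M-cDC2, 317 to 466 in CLP-cDC2 and 248 to 322 in CDP-cDC2, with Klk1 at 0 in L-cDC2 and CDP-cDC2. Its part in the Bst2 and Irf7 values was not tested.

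Parp14 (ENSMUSG00000034422, chromosome 16 from 35653244 to 35691914), an ADP-ribosyltransferase, read 4.16, 4.35 and 3.75 FPKM in L-cDC2, 3.29, 3.05 and 3.06 in M-cDC2, 5.34, 4.28 and 3.66 in CLP-cDC2, and 7.53, 6.01 and 6.38 in CDP-cDC2. The CDP-cDC2 libraries were the 3 highest of the 12 and the M-cDC2 libraries the 3 lowest. CLP-cDC2 minus CDP-cDC2 was -0.50 (SE 0.15, adjusted p = 0.045 by limma), held without CLP-cDC2 replicate 1 or M-cDC2 replicate 3 and missed without any other library (0.0558 to 0.139). CDP-cDC2 minus M-cDC2 was 0.88 (SE 0.15, adjusted p = 0.011 by limma), missed without M-cDC2 replicate 2 (0.0592). L-cDC2 minus M-cDC2 was 0.30 (SE 0.15, adjusted p = 0.66 by limma).

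The OAS family makes the short oligoadenylates that activate RNase L. Oas2 (ENSMUSG00000032690, chromosome 5 from 120868398 to 120887918) read 5.47, 6.89 and 5.32 FPKM in L-cDC2, 3.72, 3.27 and 2.13 in M-cDC2, 6.42, 3.25 and 2.46 in CLP-cDC2, and 6.65, 6.48 and 7.52 in CDP-cDC2. In the reporter mice the L-cDC2 libraries were all above M-cDC2, whereas in the transferred cells CLP-cDC2 replicates 2 and 3 were far below CDP-cDC2 and replicate 1 nearly level with it. L-cDC2 minus M-cDC2 was 0.79 (SE 0.25, adjusted p = 0.25 by limma) and CLP-cDC2 minus CDP-cDC2 was -0.72 (SE 0.25, adjusted p = 0.077 by limma).

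Oasl2 (ENSMUSG00000029561, chromosome 5 from 115034997 to 115050295), a family member with ubiquitin-like domains, read 6.21, 6.13 and 7.09 FPKM in L-cDC2, 4.96, 5.52 and 4.20 in M-cDC2, 5.27, 5.15 and 8.54 in CLP-cDC2, and 7.68, 9.23 and 9.74 in CDP-cDC2. CDP-cDC2 lay above both reporter groups, and CLP-cDC2 replicate 3 lay within the CDP-cDC2 range. Oasl2 rose in CDP-cDC2 against M-cDC2 by 0.75 (SE 0.18, adjusted p = 0.0497 by limma), a call that held without CLP-cDC2 replicate 3 and was lost without any other single library (0.0527 to 0.171). Oas1a had group means from 49.4 (L-cDC2) to 66.7 FPKM (CDP-cDC2), Oas1g from 10.8 (L-cDC2) to 20.6 (CDP-cDC2) and Oasl1 from 2.83 (M-cDC2) to 5.36 (CDP-cDC2), with no call. The transcripts of Oas1a and Oas1g are 97.5% identical over 1860 aligned bases, so their split is uncertain.

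Oas3 (ENSMUSG00000032661, chromosome 5 from 120891163 to 120915726), below the filter, read 0.229, 0.836 and 0.257 FPKM in L-cDC2, 0.347, 0.244 and 0.477 in M-cDC2, 1.27, 0.365 and 0.613 in CLP-cDC2, and 0.914, 0.977 and 1.55 in CDP-cDC2. Ifi44 (ENSMUSG00000028037, chromosome 3 from 151436559 to 151455597), also below it, read 0.236, 0.504 and 0.407 FPKM in L-cDC2, 0.423, 0.235 and 0.238 in M-cDC2, 0.356, 0.268 and 0.834 in CLP-cDC2, and 0.768, 0.820 and 0.360 in CDP-cDC2. The highest of these values was 1.55 FPKM. In Oas3 the CDP-cDC2 libraries lay above those of both reporter groups and overlapped CLP-cDC2, and in Ifi44 all groups overlapped.

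Whether the reporter and transfer comparisons differed was tested directly as the difference of the 2 differences. Oas2 and Parp14 were called lower and 0 genes higher, where 3.61% of all genes were called lower and 2.38% higher. The value was -1.51 (SE 0.35, adjusted p = 0.029 by limma) for Oas2 and -0.80 (SE 0.21, adjusted p = 0.045 by limma) for Parp14. The median over the 29 genes was -0.28 beside -0.05 over all genes. Oas2 missed the threshold without CDP-cDC2 replicate 3, CLP-cDC2 replicate 2 or 3, any L-cDC2 library, or M-cDC2 replicate 2 or 3 (0.0502 to 0.0903). Parp14 missed it without any single library other than CLP-cDC2 replicate 1 (0.0531 to 0.124). For the other genes called in the transfer comparison a difference from the reporter comparison was not shown.

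The comparison named by the design, CLP-cDC2 with L-cDC2, gave 1 gene called higher, Bst2, and 0 lower, where 4.29% of all genes tested were called higher and 6.32% lower. The median was 0.03 beside -0.00 over all genes. The count was 4 higher (with Eif2ak2, Ifitm3 and Oas1g) without the pair that lay apart, 2 (with Eif2ak2) without either of them alone, and 0 without CLP-cDC2 replicate 1 or 3 or any L-cDC2 library. Over all genes, the 623 called higher became 1201 without the pair, 1005 without CDP-cDC2 replicate 3 and 664 without M-cDC2 replicate 3. They were 133 to 368 without CLP-cDC2 replicate 1 or 3 or an L-cDC2 library. Oas2 was called lower without CLP-cDC2 replicate 1, and Ifit3b without CLP-cDC2 replicate 3. Donor, host, reporter and transfer all change together between these groups and cannot be told apart.

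CDP-cDC2 against M-cDC2 gave 4 genes called higher (Oasl2, Zbp1, Rtp4 and Parp14) and 0 lower, beside 1.62% and 0.956% of all genes (236 and 139 genes, or 134 and 132 under quantile scaling). All 3 CDP-cDC2 libraries exceeded all 3 M-cDC2 libraries in 14 of the 29 genes, where 14.5% of all genes did so. The median was 0.39 beside 0.02, with 27 positive and 2 negative. Rtp4 (ENSMUSG00000033355, chromosome 16 from 23339041 to 23432972), a chaperone of membrane receptors that also limits viral replication, read 34.00, 18.7 and 25.6 FPKM in L-cDC2, 23.9, 22.8 and 24.3 in M-cDC2, 27.8, 30.3 and 50.9 in CLP-cDC2, and 51.5, 52.2 and 42.1 in CDP-cDC2. CDP-cDC2 was above every M-cDC2 library, and the CLP-cDC2 libraries were split, with replicate 3 at the CDP-cDC2 level. Rtp4 rose by 1.003 (SE 0.23, adjusted p = 0.041 by limma), lost without any CDP-cDC2 or M-cDC2 library or L-cDC2 replicate 3 (0.0619 to 0.13).

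The count of 4 was 0 without the pair that lay apart, 0 without M-cDC2 replicate 2, and 1 without any other CDP-cDC2 or M-cDC2 library or L-cDC2 replicate 3. Over all genes, the 236 called higher became 37 without the pair and 26 without M-cDC2 replicate 2. They were 39 to 415 without any of the other libraries named. This comparison shares CDP-cDC2 with the transfer comparison, so the 2 sets of values are not independent. Host and transfer cannot be told apart from progenitor here either.

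Of the remaining genes, Ifi35 (ENSMUSG00000010358, chromosome 11 from 101339233 to 101349524), among the most abundant, read 87.2, 85.9 and 89.2 FPKM in L-cDC2, 87.5, 97.9 and 107 in M-cDC2, 87.6, 101 and 79.5 in CLP-cDC2, and 105, 91.5 and 61.4 in CDP-cDC2. The CDP-cDC2 libraries ran from the lowest of the 12 to close to the highest, and no comparison of Ifi35 passed. The nuclease Isg20 averaged 18.8 to 22.6 FPKM in the 4 groups, the apoptosis factor Xaf1 6.74 to 8.80 and Trim30a, a ubiquitin ligase of the TRIM family, 10.5 to 15.5, with no call. By the exon positions of the deposited table, 10 of the genes share exon bases with another gene. The most are in Ifi35 (16.8% of exon bases shared with Gm11626), Rtp4 (13.9% with Gm45338) and Herc6 (13.7% with Gm45193). No source used here says if strand was used in counting.

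**Figure D4:**
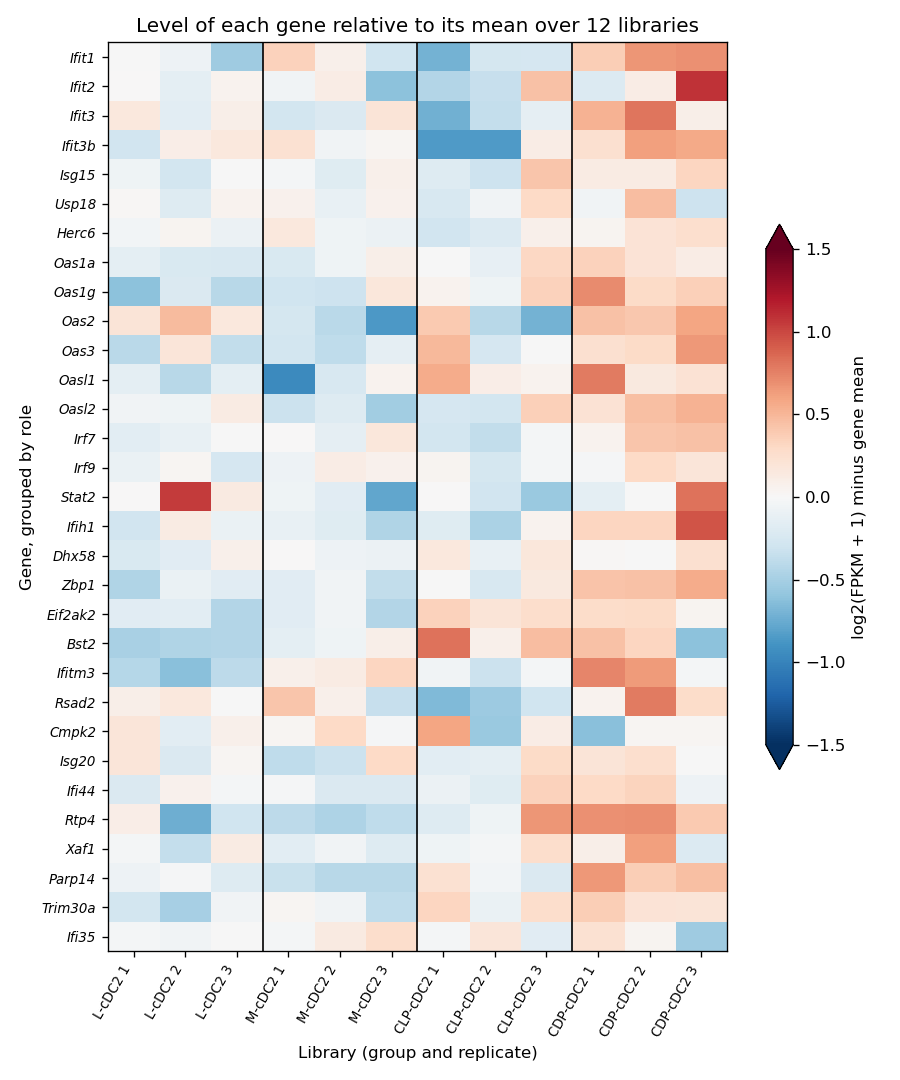
log2(FPKM + 1) of each of the 31 genes (rows, by role) minus its mean over the 12 libraries (columns, by group and replicate), red above and blue below the mean, with colours saturating at 1.5. The CDP-cDC2 columns hold the most red, 26 of the 31 genes having their highest group mean there, and the CLP-cDC2 columns differ among themselves.

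Variation within groups was uneven. CLP-cDC2 replicate 3 was the highest of its group for 20 of the 31 genes and replicate 2 the lowest for 17. CDP-cDC2 replicate 3 was both the highest of its group for 13 genes and the lowest for 12. Mx1 (ENSMUSG00000000386, chromosome 16 from 97248235 to 97264107), a dynamin-like antiviral GTPase disrupted in many laboratory strains and outside the counts above, read 6.67, 6.00 and 6.84 FPKM in L-cDC2, 7.42, 4.56 and 5.38 in M-cDC2, 4.83, 4.73 and 5.66 in CLP-cDC2, and 7.83, 8.74 and 6.63 in CDP-cDC2. CDP-cDC2 and CLP-cDC2 did not overlap, with a difference of -0.52 (SE 0.17, adjusted p = 0.058 by limma). Mx2, its paralogue, had group means from 0.534 (L-cDC2) to 1.37 FPKM (CDP-cDC2), with a CLP-cDC2 minus CDP-cDC2 value of -0.26 (SE 0.29, adjusted p = 0.59 by limma).

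Monocyte and macrophage markers moved with the transfer comparison. The 13 listed genes summed to 436 to 579 FPKM in CLP-cDC2 and 1041 to 1242 in CDP-cDC2, with none at 0 in any group, and 6 of the 10 tested were called lower in CLP-cDC2, where 6.12% of all genes were. In the reporter mice they summed to 604 to 662 in L-cDC2 and 859 to 952 in M-cDC2, and 3 of the 10 were called lower in L-cDC2, where 0.44% of all genes were and 0 of the 29 interferon-stimulated genes. A single gene of this list reached 381 FPKM in CLP-cDC2, 561 in CDP-cDC2, 477 in L-cDC2 and 596 in M-cDC2. Other marker lists moved with the transfer comparison too. The cDC1 list had 6 of 10 tested genes called higher in CLP-cDC2 and 0 lower (median 0.72 in log2 units), and its sum was 198 to 251 FPKM there and 114.5 to 180 in CDP-cDC2. The cDC2 list had 8 of 20 called lower and 1 higher (median -0.39), and the B cell list 5 of 9 higher and 0 lower (median 0.58), where 7.02% of all genes were higher. The T cell list had 2 of 7 higher and 0 lower (median 0.58), and the pDC list 2 of 11 higher and 1 lower (median 0.41). The list for NK cells and innate lymphoid cells had 1 of 11 higher and 1 lower, and the erythroid or platelet list 1 of 5 higher and 0 lower. The part of these lists in the lower interferon-stimulated genes was not tested.

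Upstream in the pathway, no gene of the receptor and its signal transduction (10 tested) was called by limma in any of the 5 comparisons. At an unadjusted p under 0.05, 4 of these 10 were lower and 0 higher in CLP-cDC2 than in CDP-cDC2, where 13.2% of all genes were lower, and 1 was higher and 0 lower in the tdTomato+ than in the tdTomato- cells, where 5.61% were higher. In CLP-cDC2 against L-cDC2 3 were lower and 0 higher, beside 14% lower over all genes. In CDP-cDC2 against M-cDC2 4 were higher and 1 lower, beside 12.6% and 7.59%. The difference between both comparisons had 6 lower and 0 higher, beside 14.1% lower. Ifnar1 averaged 8.35 ± 1.94 FPKM in CLP-cDC2 and 13.3 ± 2.56 in CDP-cDC2 (SD, n = 3, limma adjusted p = 0.0751), and Ifnar2 60.1 and 56.4 (0.691). Jak1 averaged 14.99 and 21.7 (0.167) and Tyk2 6.61 and 13.3 FPKM (0.141). The 20 genes of type I and III interferons were nearly silent, with a summed level of at most 0.325 FPKM in any library and 15 to 18 of them at 0 in all 3 libraries of a group.

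Of the sensors and adaptors upstream of interferon (16 tested), 3 were lower and 1 higher in CLP-cDC2 than in CDP-cDC2, where 6.12% of all genes were lower and 7.02% higher. Tlr7, the endosomal sensor of single-stranded RNA, fell from 4.79 FPKM in CDP-cDC2 to 2.002 in CLP-cDC2, and Irf8, which drives cDC1 and pDC development, rose from 25.5 to 56.9 FPKM. Ddx58 (RIG-I) fell from 6.82 to 3.50 FPKM and Ticam1 (TRIF) from 7.18 to 4.20. Tlr7 and Irf8 passed with every single library left out, Ddx58 did not without replicate 3 of CDP-cDC2 or 1 or 2 of CLP-cDC2, and Ticam1 did not without replicate 1 or 3 of CDP-cDC2 or 2 or 3 of CLP-cDC2 (up to 0.101 and 0.0911). In L-cDC2 against M-cDC2, 1 of the 16 was called, Irf8, which was lower (29.8 against 58.3 FPKM, adjusted p = 0.0333, limma) and lost without any library of the 2 groups. Over all genes 0.44% were called lower and 1.29% higher there, and 0 of 17 negative regulators of interferon signalling were called. Of 17 negative regulators 1 was called between CLP-cDC2 and CDP-cDC2, Rnaseh2b, a subunit of the RNA:DNA hybrid nuclease, which rose from 10.6 to 17.97 FPKM and passed with every single library left out. In the difference between both comparisons, the sensors had 1 gene higher and 2 lower and the regulators 1 higher, beside 2.38% higher and 3.61% lower over all genes. In CLP-cDC2 against L-cDC2 these were 1 higher and 3 lower, and 1 higher, beside 4.29% and 6.32%. In CDP-cDC2 against M-cDC2 they were 1 higher and 1 lower, and 1 higher, beside 1.62% and 0.956%.

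A wider list of other interferon-stimulated genes (56 tested) had 17 genes lower and 1 higher in CLP-cDC2 than in CDP-cDC2, with a median of -0.18. Over all genes tested 6.12% were lower and 7.02% higher, with a median of -0.01. The chemokine Ccl5 fell from 244 to 74.3 FPKM, the IFIT relative Ifit1bl1 from 9.87 to 3.63, the nuclear protein Phf11a from 42.03 to 17.99 and the ADP-ribosyltransferase Parp12 from 9.78 to 3.74. The galectin Lgals9 rose from 50.6 to 82.2 FPKM. Parp12 did not pass without replicate 3 of CDP-cDC2 or 1 or 2 of CLP-cDC2 (up to 0.0631), and the other 4 passed with each single library left out. The count of 17 was 9 without CDP-cDC2 replicate 2, 8 without CLP-cDC2 replicate 1 and 5 without CLP-cDC2 replicate 2. In these runs the 889 called lower over all genes became 727, 603 and 501. In L-cDC2 against M-cDC2 limma called 0 of these 56, where 1.29% of all genes were called higher and 0.44% lower. At an unadjusted p under 0.05 there were 13 (23.2%), beside 8.26% of all genes. Of the 13, 9 were higher and 4 lower in L-cDC2, beside 5.61% and 2.66% of all genes. CDP-cDC2 against M-cDC2 had 3 higher (Ifit1bl1 by 1.17, Znfx1 by 0.98 and Lgals3bp by 0.56 in log2 units) and 0 lower, where 1.62% of all genes were higher and 0.956% lower. Without M-cDC2 replicate 2 none of these 3 passed, Ifit1bl1 also did not without either other M-cDC2 library or replicate 1 or 3 of CDP-cDC2, and Lgals3bp passed only without replicate 2 or 3 of CLP-cDC2 (limma adjusted p up to 0.116, 0.0592 and 0.159 for Ifit1bl1, Znfx1 and Lgals3bp). CLP-cDC2 against L-cDC2 had 3 genes of the list higher and 6 lower, beside 4.29% and 6.32% of all genes, and the difference between both comparisons 1 higher and 5 lower, beside 2.38% and 3.61%.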

How the data were processed

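RNA of splenic cDC2 (12 libraries, 3 in each of 4 groups named in the labels) was taken with a column kit and made into SMART-Seq HT and Nextera XT libraries, per the labels' protocols. The authors deposited 1 table of FPKM for 55322 genes. STAR 2.7.9a, featureCounts 2.0.1, DESeq2 1.20.0, cutadapt 3.7, Trim Galore 0.6.7 and Trimmomatic 0.39, with GRCh38 and GRCm38, are named per the submitters' processing notes, without the role of each. None of the starts of the listed genes equals that in GENCODE M21 for GRCm38, so gene positions follow the deposited table, whose build no source used here names.

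Depth was read from the steps of low values on the assumption that the commonest is 1 read. Of the values, 44.75 to 53.25% were whole reads (tolerance 0.005), so no count test was used as the main one. Whole reads stood in 0 libraries for Ifitm3, Isg15, Xaf1 and Trim30a and in 12 for Ifit2, Oas2, Rsad2 and Bst2. Without molecular identifiers, depths bear on counting error alone.

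The log2(FPKM + 1) scale, used throughout, understates changes of low genes. limma 3.58.1 (R 4.3.3, eBayes with trend, two-sided) fitted 4 group means to 12 libraries (8 residual degrees of freedom) over 14538 genes with at least 1 FPKM in at least 3 libraries. Within each comparison, p-values were adjusted by Benjamini-Hochberg across the whole tested table, and genes under 0.05 were called. The script was tested on simulated data. The listed genes, pathway and marker lists, tests and alternatives were chosen with earlier results of these data known, so a list's count is not independent evidence of its direction.

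Every value is given for genes called in at least 1 comparison, for those whose libraries do not overlap in a lineage comparison at a difference of at least 0.5, for the 2 highest and the 2 lowest genes, and for Irf7, Irf9, Stat2, Usp18 and Eif2ak2. From the pathway lists, up to 4 called genes and a few genes fixed by name are given, and 1 of the latter is not reported here. Alternatives were pseudocounts of 0.1 and 5, an FPKM minimum of 5, no filter, quantile and median-of-ratios scaling, protein-coding genes alone, array weights, no trend, voom on recovered reads, replicate blocks, the groups of a comparison alone, and libraries left out. Promoter letters come from RefSeq (GRCm38.p6), and transcripts were aligned with Biopython 1.88.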

Additional observations from a re-analysis of the deposited data

Results flagged for a closer look

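The difference between CLP-cDC2 and CDP-cDC2 was not the same as that between L-cDC2 and M-cDC2 for 2 genes, by limma's test of the difference itself over all 12 libraries. Oas2, the oligoadenylate synthetase, had a difference of differences of -1.51 (adjusted p = 0.029), with all L-cDC2 libraries above all M-cDC2 libraries and all CLP-cDC2 libraries below all CDP-cDC2 libraries. Parp14, the ADP-ribosyltransferase, had one of -0.80 (adjusted p = 0.045), with the same order of libraries in both systems. Of the 12 runs that each left out a single library, Oas2 passed in 4 and Parp14 in 1, with adjusted p up to 0.0903 and 0.124.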

How the results depend on the processing

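No difference called by limma changed sign under any alternative, and the median of all genes moved by less than 0.1 in log2 units under each scaling, except that the difference between both comparisons moved from -0.05 to 0.07 under quantile scaling. There the median of the 29 genes was -0.28 before and -0.24 after, and Oas2 kept its call (-1.31, limma adjusted p = 0.0428) while Parp14 did not (-0.60, 0.104). The median of the 29 genes ran from -0.46 to -0.26 for CLP-cDC2 minus CDP-cDC2. In this comparison the 9 genes called lower became 1 without a filter and with its groups alone, 5 with the replicate block and 4 without a pair of libraries (replicate 3 of CDP-cDC2 and of M-cDC2), and 2 to 9 with single libraries left out. The wider list's 17 became 8, 5 and 11 without a filter, with the groups alone and with the block, and 5 to 17 with single libraries left out. Over all genes, the 889 called lower became 491 without a filter (44519 genes), 646 with the block and 808 without that pair. They were 501 to 907 with single libraries left out. For the difference between both comparisons the 2 called lower became 0 without a filter, 7 with array weights, and 1 with quantile scaling, the block or that pair left out, and 0 to 2 with single libraries left out. Over all genes, the 525 called lower became 175 without a filter, 1082 with array weights and 384 with quantile scaling. They were 314 with the block, 283 without that pair and 131 to 695 with single libraries left out.

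For CDP-cDC2 minus M-cDC2 the 4 called higher became 1 without a filter, with the groups alone or with the block, 2 with median-of-ratios factors, 13 with array weights and 0 without the pair, and 0 to 5 with single libraries left out. Over all genes, the 236 called higher became 40 without a filter, 94 with the block and 184 with median-of-ratios factors. They were 1194 with array weights, 37 without the pair and 26 to 415 with single libraries left out. For CLP-cDC2 minus L-cDC2 the 1 called higher became 2 with a pseudocount of 0.1, quantile scaling, median-of-ratios factors, protein-coding genes alone, no trend or voom on recovered reads, 3 with array weights, 0 without a filter and 4 without the pair, and 0 to 2 with single libraries left out. The 0 called lower there became 1 (Rsad2) with the groups alone and 0 to 1 with single libraries left out. Over all genes, the 623 called higher in CLP-cDC2 became 1127 with array weights, 293 without a filter and 1201 without the pair. With single libraries left out they were 133 to 1005, and the 919 called lower were 370 to 1340. For L-cDC2 minus M-cDC2 the 0 called lower became 1 (Ifitm3) with quantile scaling, array weights, the groups alone or without the pair, and 0 to 1 with single libraries left out, and the 0 called higher became 1 (Oas2) with array weights. Over all genes, the 64 called lower became 96 with quantile scaling, 300 with array weights and 59 without the pair. They were 18 to 80 with single libraries left out, and the 188 called higher became 538 with array weights. The cause of these shifts was not tested.

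The labels do not say that replicate numbers pair libraries, so the numbers were not taken to pair them. Same-numbered libraries correlated at -0.435 to 0.282 in their deviations from group means. With 3 libraries in a group, such deviations depend on each other and cannot settle whether the numbers pair. Not every library correlated best with its own number. Depth limits Rsad2 most among the called genes, at 64 reads in its lowest library.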

Other observations

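Genes best known for induction by interferon gamma were a list of their own (28 tested). Limma called 6 of them lower and 0 higher in CLP-cDC2 than in CDP-cDC2, with a median of -0.30, beside 6.12% of all genes called lower, 7.02% higher and a median of -0.01. The guanylate-binding protein gene Gbp2 fell from 12.1 ± 2.14 FPKM in CDP-cDC2 to 5.15 ± 1.74 in CLP-cDC2 (SD, n = 3, limma adjusted p = 0.0068), and passed with each single library left out. Cxcl9, a chemokine for T cells, fell from 4.91 to 1.76 FPKM, Nlrc5, the activator of MHC class I genes, from 5.92 to 2.85, and Gbp4 from 3.74 to 1.78. Cxcl9 did not pass in 8 of the 12 runs that left out 1 library, replicate 1 or 2 of CDP-cDC2 or M-cDC2, 2 or 3 of CLP-cDC2, and 1 or 3 of L-cDC2 (adjusted p at most 0.155). Nlrc5 did not in 8 of them either, any of CLP-cDC2, replicate 1 or 3 of CDP-cDC2 or L-cDC2, and 2 of M-cDC2 (up to 0.17). Gbp4 did not in 4, replicate 2 or 3 of CDP-cDC2 and 1 or 2 of CLP-cDC2 (up to 0.105). Irf1, the early transcription factor of this response, averaged 51.9 ± 4.40 and 65.3 ± 9.95 FPKM in CLP-cDC2 and CDP-cDC2 (limma adjusted p = 0.115). In L-cDC2 against M-cDC2, limma called 0 of the 28, where 1.29% of all genes were called higher and 0.44% lower. At an unadjusted p under 0.05 there were 2 (7.14%), beside 8.26% of all genes.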
